A study of Homo sapiens with 4 samples.

Results

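S100 proteins and annexins are 2 families of calcium-dependent proteins, and their genes were followed here in prostate cancer cells that had become resistant to enzalutamide. The members were the protein-coding genes of the count tables whose symbol was S100A with any ending, S100B, S100G, S100P, S100Z, or ANXA followed by a digit. These were 35 of 19645 protein-coding genes, with 21 S100 genes and 14 ANXA genes. One ANXA symbol, ANXA2R, encodes a receptor for annexin A2 and is no annexin itself. Of the 35 members, 18 had enough reads to be tested and 17 did not.

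The cells were C4-2, an established human prostate cancer line derived from LNCaP that grows without testicular androgen. The tested cells were labelled enzalutamide-resistant and the others control, with 2 libraries each. By the labels, cells were kept with or without enzalutamide, an antiandrogen drug used against prostate cancer, for 1 month at passages 20 to 30, in RPMI medium with serum, and a mention of FGF-2 medium is not tied to either group. Drug and resistance came together in the same libraries and cannot be told apart. All libraries are from a single line, and nothing in the labels says whether the 2 libraries of a group were separate cultures, so the p-values cover only how far these libraries differ, and that difference may be technical.

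S100 proteins are small proteins with a pair of EF-hands, the loop that binds calcium. They mostly act as dimers that, once calcium is bound, dock onto other proteins, and several are also secreted and bind receptors such as AGER (RAGE) and TLR4. Annexins bind acidic phospholipids in membranes when calcium rises and take part in vesicle traffic, membrane repair and the linking of membranes to actin. The families meet in fixed pairs: S100A10 binds ANXA2 and S100A11 binds ANXA1, and the complex of S100A10 and ANXA2 also holds the giant scaffold AHNAK and, on the cell surface, gathers plasminogen and its activator PLAT.

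Gene counts totalled 45033885 and 39047453 in resistant libraries, against 25589724 and 29866008 in control libraries. Levels are in CPM, a gene's reads relative to its library's scaled total. Luminal prostate markers (9 genes) summed to 4420 and 4430 CPM in resistant cells and 3140 and 3160 CPM in control cells. The basal keratin KRT5 had no read in any library and KRT14 had at most 3, while the basal factor TP63 had 94 and 89 reads in resistant libraries and 0 and 1 in control libraries. The 7 myeloid markers summed to 4.27 and 4.12 CPM in resistant cells and 1.8 and 1.46 CPM in control cells. Of these, ITGAM had 163 and 126 reads in resistant libraries and 9 and 7 in control libraries, CSF1R had 21 and 33 in resistant libraries and 26 and 24 in control libraries, the leukocyte gene PTPRC had 2 to 4 reads in every library and FCGR3B had none. Fibroblast markers (4 genes) summed to 6.89 to 9.61 CPM over all libraries. COL1A2 was at 0 in all, and COL1A1, with 260 and 217 reads in resistant libraries and 150 and 220 in control libraries, was called lower. Endothelial markers (3 genes) summed to 2.75 to 4.65 CPM. CDH5 had 0 or 1 read, and VWF, with 145 and 112 reads in resistant libraries and 109 and 117 in control libraries, was called lower. Neural markers (5 genes) summed to 2.57 to 3.66 CPM, with SOX2 at 0 or 1 read and SYP at 118 and 94 reads in resistant libraries and 59 and 53 in control libraries. The 3 keratinocyte markers summed to 17.9 and 18.9 CPM in resistant cells and 51 and 47 CPM in control cells, nearly all from KRT10. The part of these markers in the results was not tested.

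Windows upstream of the start sites of 4 members are shown first because their genes stand for the 4 patterns found. S100A14 was higher in resistant cells, S100A4 was lower, S100A11 was not called, and ANXA2 had almost no reads. The sequences are from RefSeq (GRCh38.p14), each the stretch of the 250 bases before the start that lies outside every GENCODE 29 exon, with CG dinucleotides, the sites of DNA methylation, in capitals. The window of S100A14 is chr1:153616356-153616575 (minus strand), that of S100A4 chr1:153545886-153546056 (minus), that of S100A11 chr1:152037036-152037254 (minus) and that of ANXA2 chr15:60398044-60398236 (minus).
S100A14: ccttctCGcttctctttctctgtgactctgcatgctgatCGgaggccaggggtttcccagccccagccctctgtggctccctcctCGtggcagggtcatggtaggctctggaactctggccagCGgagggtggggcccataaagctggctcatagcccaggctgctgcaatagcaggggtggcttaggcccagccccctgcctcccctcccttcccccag
S100A4: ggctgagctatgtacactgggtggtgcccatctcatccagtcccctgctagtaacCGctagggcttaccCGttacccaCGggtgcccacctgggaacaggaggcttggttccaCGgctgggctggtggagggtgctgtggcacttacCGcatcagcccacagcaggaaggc
S100A11: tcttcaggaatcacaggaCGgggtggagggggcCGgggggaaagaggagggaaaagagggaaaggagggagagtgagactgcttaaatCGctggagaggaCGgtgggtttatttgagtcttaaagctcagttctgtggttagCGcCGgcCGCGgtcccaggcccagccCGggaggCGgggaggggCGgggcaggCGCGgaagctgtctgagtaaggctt
ANXA2: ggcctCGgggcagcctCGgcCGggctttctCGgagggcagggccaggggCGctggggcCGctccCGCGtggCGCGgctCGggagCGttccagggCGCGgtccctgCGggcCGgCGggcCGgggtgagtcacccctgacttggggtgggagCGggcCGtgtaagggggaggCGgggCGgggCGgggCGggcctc

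The printed stretches hold 4 CG dinucleotides for S100A14, 5 for S100A4, 13 for S100A11 and 24 for ANXA2. Over the full 250 bases, ANXA2 had 28, S100A10 had 24 and S100A6 had 24, against a median of 11 over 35116 RefSeq windows. The S100A10 and S100A6 windows lie inside annotated exons and are not printed. These windows of like CG content belonged to genes with different levels: S100A10 was read in all libraries, while ANXA2 and S100A6 were near 0 in all. Methylation was not measured. RefSeq windows were found for 31 members, 43 windows in all. The AP-1 motif TGANTCA, read on both strands, was in 5 of these windows, from 5 members (S100A2, S100A3, S100A5, S100A12 and ANXA2), and in 6.6% of all windows. The Sp1 box GGGCGG was in 15 of these windows, from 14 members, and in 42.6% of all windows. Neither motif contains the other.

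The comparison asked how the members differed between resistant and control cells. In the test across 20325 genes, 13 of the 18 tested members were called at an adjusted p below 0.05, with 7 higher and 6 lower in resistant cells. Over all tested genes 64.7% were called, 33% higher and 31.7% lower, and among the protein-coding ones 73.7%, 42.3% higher and 31.4% lower. The members' share of calls is therefore read against a background in which most genes were called. Among all tested genes 7.58% were at least 2-fold higher and 10.1% at least 2-fold lower, and among the 18 members these were 3 (S100A10, S100A14 and ANXA1) and 4 (S100A1, S100A4, S100A13 and S100P). The groups did not overlap in CPM for 16 of the 18 tested members, and 81.3% of all tested genes showed such a gap. The cells were sequenced in bulk, so fewer cells with a transcript and less of it per cell cannot be told apart.

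Among 9 tested S100 genes 2 rose and 4 fell (median log2 change -0.72), and among 9 tested ANXA genes 5 rose and 2 fell (median 0.44). The median over all tested genes was -0.016. Short genes leaned lower as a class. Of 195 tested protein-coding genes under 1000 exonic bases, 27 rose and 103 fell (median -0.53). Among the tested S100 genes only S100A11 and S100A9 are that short. The medians moved when single libraries were left out. The S100 median was -1.11 without resistant replicate 1 and -0.43 without resistant replicate 2. In the main fit and in these it was the value of S100A2, which had 8 to 15 reads per library and was not called. The ANXA median was 0.28 without control replicate 2, but over 10 genes in place of 9, so it does not describe the same genes. With no filter on low counts the S100 median was -0.0089 over 16 genes. With a correction of each library for gene length and GC content, the S100 genes had a median of -0.67 (3 higher and 4 lower) and the ANXA genes 0.34 (4 higher and 1 lower). The ANXA median was the value of ANXA11 in the main fit, and ANXA11 was not called with this correction. With the correction it was the value of ANXA2R, which is no annexin and was not called. Whether the families differ from each other or from other genes was not tested.

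**Figure D1:**
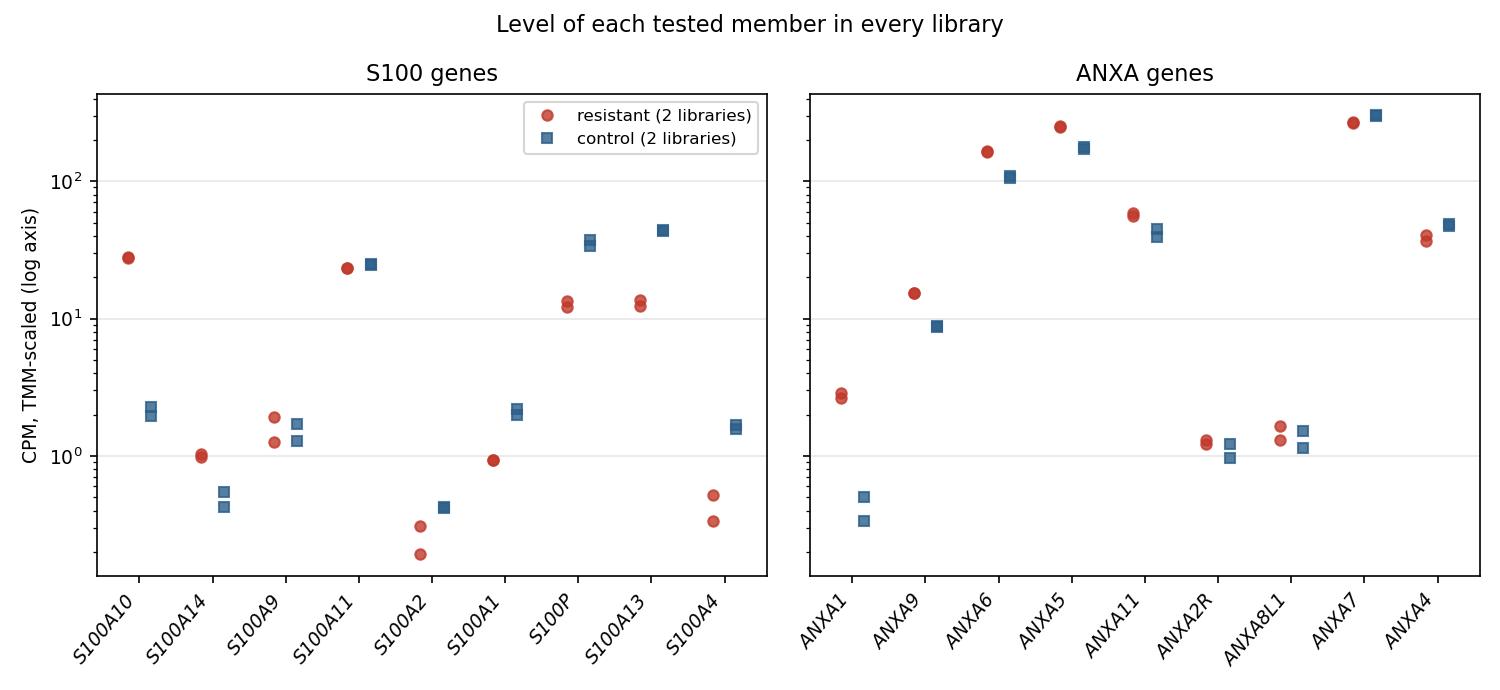
Level of each tested member in CPM on a log axis, 1 point per library, resistant (circles) left of control (squares), S100 genes in the left panel and ANXA genes in the right, ordered by fold change. S100A10 sits near 28 CPM in resistant libraries and near 2 in control libraries, while most annexins lie close together in the 2 groups.

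S100A10 (p11) was the member with the largest change. This S100 protein has lost calcium binding in its EF-hands and is held in an active form without it. The gene, ENSG00000197747.7, lies on chromosome 1 at 151982915 to 151994390 on the minus strand (GRCh38). It had 1356 and 1149 reads in resistant libraries, against 54 and 55 in control libraries. In CPM this was 28.1 and 27.7 in resistant cells and 2.26 and 1.96 in control cells, with means of 27.9 ± 0.284 and 2.11 ± 0.216 (SD, n = 2 each). The groups were far apart beside the gap between libraries of a group. The fold change was 13.3 (log2 3.73, SE 0.0900, edgeR adjusted p = 3.06e-11).

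ANXA2, the annexin that binds S100A10, was close to absent in the same libraries. It had 10 and 2 reads in resistant libraries and 8 and 5 in control libraries, which is 0.207 and 0.0482 CPM in resistant cells and 0.335 and 0.178 CPM in control cells. The groups overlap and ANXA2 did not pass the filter on low counts. Its processed pseudogenes could take reads that fit both, and ANXA2P1 had 0 and 2 reads in resistant libraries and 4 and 1 in control libraries, ANXA2P2 had at most 1 and ANXA2P3 none. The tables set reads that aligned to several places aside from the genes, and a loss of ANXA2 reads of that kind was not tested. S100A10 rose, then, in cells where nearly no ANXA2 reads were counted.

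The ANXA2 receptor gene, ANXA2R, had 59 and 54 reads in resistant libraries and 29 and 27 in control libraries. In CPM these were 1.22 and 1.3 in resistant cells and 1.22 and 0.961 in control cells, which nearly touch. Its log2 change was 0.22 (SE 0.215, edgeR adjusted p = 0.404). An antisense gene shares 115 of its 2386 exonic bases, and without a stated strand setting their reads could be mixed.

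AHNAK, the scaffold of the S100A10 and ANXA2 complex, had 470 and 488 CPM in resistant cells and 142 and 142 CPM in control cells, a 3.37-fold rise (edgeR adjusted p = 1.52e-11). Of 14 genes of plasminogen activation, 6 could be tested, of which 1 rose and 3 fell (median log2 change -0.44, or -0.17 without control replicate 2 and -0.25 with total count scaling). Among all tested protein-coding genes 42.3% were called higher and 31.4% lower. The protease CTSB (cathepsin B), another binder of that complex, rose 1.79-fold. The plasminogen receptor PLGRKT fell 1.61-fold, the protease inhibitor SERPINE2 fell 2.24-fold, and ENO1, which also binds plasminogen, fell 1.18-fold. PLAT, the tissue plasminogen activator, had 16 and 17 reads in resistant libraries and 10 and 20 in control libraries, with a log2 change of -0.64 and an edgeR adjusted p of 0.14. PLAU, the other activator, had 1 and 3 reads in resistant libraries and none in control libraries, and plasminogen itself (PLG) had 1 and 0 in resistant libraries and 0 and 2 in control libraries.

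**Figure D2:**
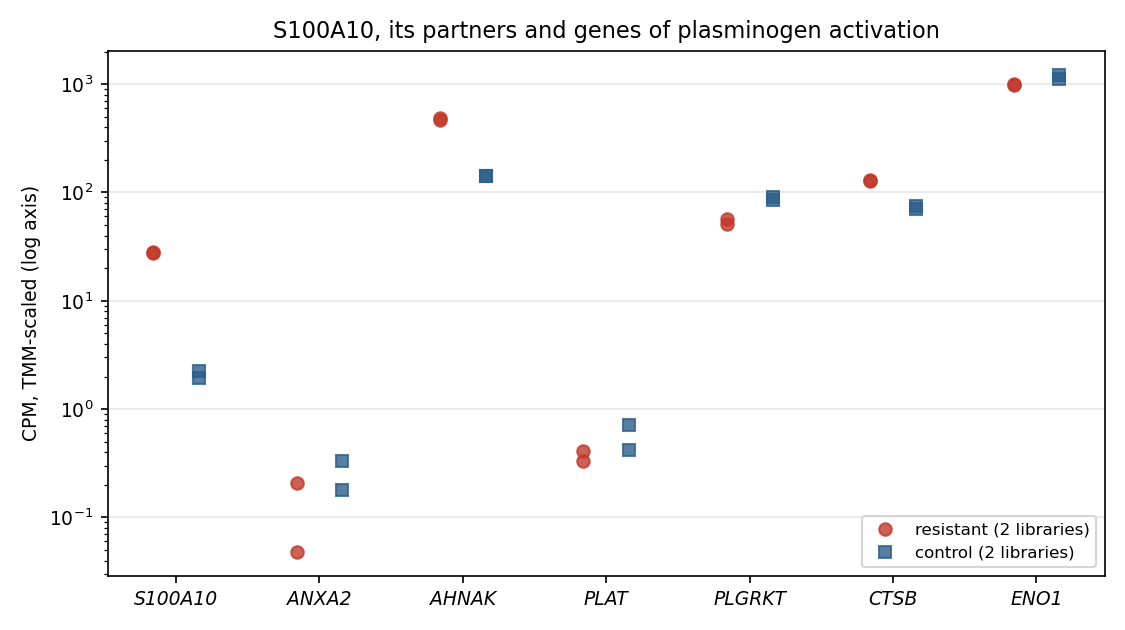
Level in CPM on a log axis of S100A10, its partners ANXA2 and AHNAK, and 4 genes of plasminogen activation, 1 point per library, resistant (circles) left of control (squares). S100A10 and AHNAK lie higher in resistant libraries, while ANXA2 stays below 0.4 CPM in every library.

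S100A14, an S100 protein of epithelia, was the other S100 gene that rose. It had 47 and 43 reads in resistant libraries, against 13 and 12 in control libraries. The levels were 0.973 and 1.04 CPM in resistant cells and 0.545 and 0.427 CPM in control cells, so the groups were apart at a low level. The fold change was 2.08 (log2 1.05, SE 0.273, edgeR adjusted p = 0.00512), but the call was not made by DESeq2 (adjusted p = 0.0844).

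S100A13, S100P, S100A4 and S100A1 fell. S100A13, which helps to export FGF1 and interleukin 1 alpha from cells, had 13.6 and 12.4 CPM in resistant cells and 44.3 and 43.4 CPM in control cells. It was 3.38-fold lower (log2 -1.76, SE 0.0632, edgeR adjusted p = 5.54e-10). It was the S100 gene with the most CPM in control cells, and in resistant cells both S100A10 and S100A11 were above it. The gene lies on chromosome 1 at 153618787 to 153631360, and 235 of its 2216 exonic bases overlap S100A1 on the other strand. AL162258.1, a processed transcript on the same strand, shares 536 of them, and reads there may have been set aside.

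S100P, a secreted S100 protein first isolated from placenta, lies outside the cluster, on chromosome 4 at 6693069 to 6697170. It had 650 and 503 reads in resistant libraries, against 807 and 1045 in control libraries, from fewer total reads. In CPM this was 13.5 and 12.1 in resistant cells and 33.8 and 37.2 CPM in control cells, with no overlap. The gene was 2.77-fold lower (log2 -1.47, SE 0.0726, edgeR adjusted p = 7.09e-09). EZR (ezrin), a linker of membrane and actin that S100P binds, was 2.24-fold higher, and S100PBP, the nuclear S100P-binding protein, had 57.6 and 55.1 CPM in resistant cells and 78.3 and 75.1 CPM in control cells, 1.36-fold lower.

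S100A4 (metastasin), which binds non-muscle myosin and is linked to cell motility, was low throughout. It had 25 and 14 reads in resistant libraries and 40 and 44 in control libraries, or 0.518 and 0.337 CPM in resistant cells and 1.68 and 1.57 CPM in control cells. The control libraries were above both resistant ones, 3.71-fold (log2 -1.89, SE 0.257, edgeR adjusted p = 4.67e-05). The non-muscle myosin chains MYH9 and MYH14 rose 2.12-fold and 3.18-fold. S100A1, known for calcium handling in muscle, had 45 and 39 reads in resistant libraries and 47 and 62 in control libraries, or 0.932 and 0.94 CPM in resistant cells and 1.97 and 2.21 CPM in control cells. It was 2.23-fold lower (log2 -1.16, SE 0.188, edgeR adjusted p = 0.000192). Because S100A1 and S100A13 overlap on opposite strands and the strand setting of the counting is not stated, their reads in that stretch cannot be told apart. The same holds for the antisense gene AL162258.2, which shares 320 of the 3030 exonic bases of S100A1. AL162258.2 had 45 and 37 reads in resistant libraries and 31 and 34 in control libraries.

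S100A11, S100A9 and S100A2 were tested and not called. S100A11, a partner of ANXA1, had 23.2 and 23.2 CPM in resistant cells and 25.1 and 24.6 CPM in control cells. Its log2 change of -0.099 (SE 0.0576, edgeR adjusted p = 0.153) turned to 0.089 with libraries scaled by total count and to 0.14 with the length and GC correction (adjusted p = 0.0339), while a filter of 1 CPM gave -0.15 (adjusted p = 0.0374). S100A9, which pairs with S100A8 as calprotectin in neutrophils, had 92 and 52 reads in resistant libraries and 41 and 36 in control libraries. At 1.91 and 1.25 CPM in resistant cells and 1.72 and 1.28 CPM in control cells, its groups overlap (log2 change 0.11, SE 0.245, edgeR adjusted p = 0.729). Its partner S100A8 had 2 and 0 reads in resistant libraries and 2 and 1 in control libraries. S100A2, known from basal epithelium, had 15 and 8 reads in resistant libraries and 10 and 12 in control libraries (log2 change -0.72, SE 0.404, edgeR adjusted p = 0.141).

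The remaining 12 S100 genes had too few reads to be tested. S100A5, S100A7, S100A7A, S100A7L2 and S100A12 had no read in any library. A count of 0 allows up to 0.0621 and 0.0723 CPM in the resistant libraries and 0.126 and 0.107 CPM in the control libraries (3 reads each, for counting error only). S100A3, S100A6, S100B and S100Z had at most 1 read in any library. S100A6 (calcyclin), abundant in many epithelial and mesenchymal cells, had 1 and 1 reads in resistant libraries and none in control libraries, while CACYBP, the calcyclin-binding protein, had 75.3 and 73.3 CPM in resistant cells and 136 and 135 CPM in control cells. S100A16 had 4 and 4 reads in resistant libraries and 3 and 2 in control libraries. S100G, the calcium carrier calbindin-D9k of intestine, had 4 and 2 reads in resistant libraries and 4 and 4 in control libraries.

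On chromosome 1 the cluster of 17 S100A genes spans 1649 kilobases, from 151982915 to 153632039. S100A10 and S100A11 lie at one end, 53.5 kilobases apart by their starts, and S100A10 rose while S100A11 was not called. S100A9 follows 1363.5 kilobases from S100A10. The next 8 genes, S100A12 to S100A3 in order, had too few reads to be tested. Starts in this order are the outermost ones in GENCODE. S100A3 lies inside the span of S100A4, and the RefSeq window of S100A4 lies nearer to S100A10 than that of S100A3. By RefSeq starts S100A4 would thus come before S100A3. At the other end, S100A4 and S100A2 were followed by S100A16, S100A14, S100A1 and S100A13, of which S100A14 was higher while S100A4, S100A1 and S100A13 were lower. Genes with opposite calls were thus neighbours, with the starts of S100A14 and S100A1 at 1622.6 and 1633.5 kilobases. Of 45 other protein-coding genes inside the span, 1 could be tested, the hair follicle protein gene TCHH, with 20 and 15 reads in resistant libraries and 4 and 6 in control libraries (log2 change 1.01, edgeR adjusted p = 0.0594). TCHH passed the filter on low counts only through the resistant libraries, so the direction of its change is not informative.

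**Figure D3:**
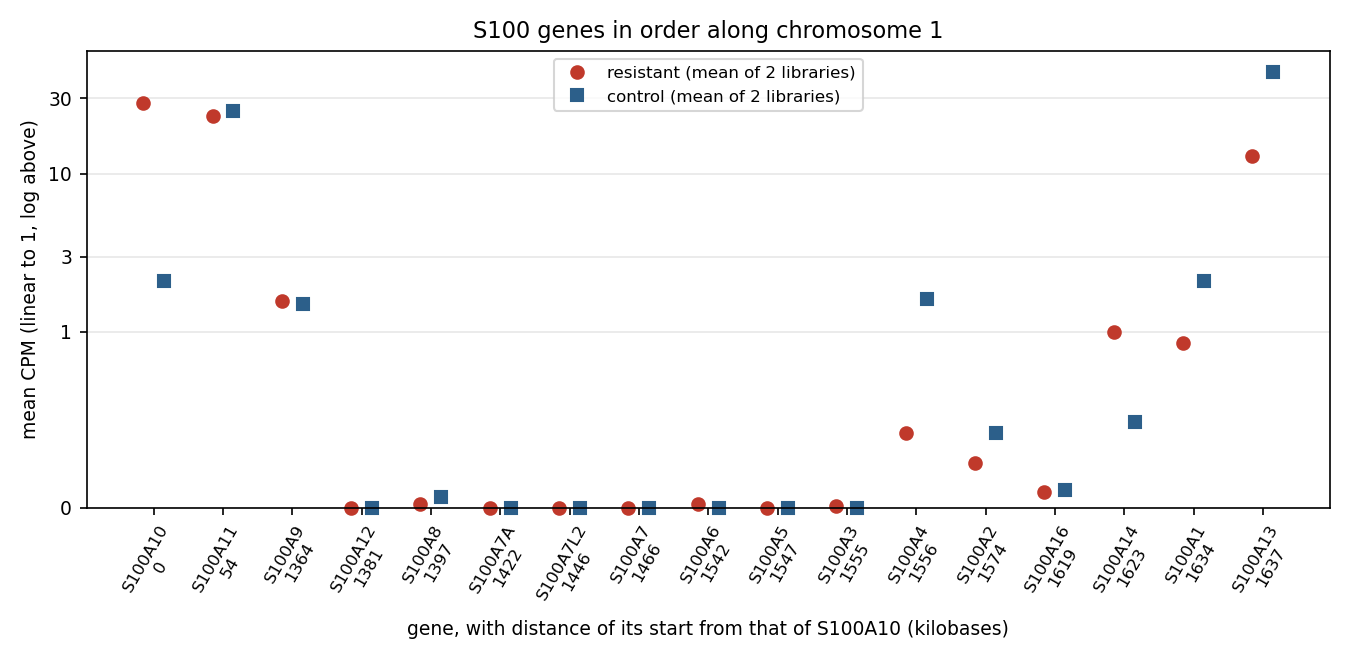
Mean CPM of the 17 S100A genes of chromosome 1 in resistant (circles) and control (squares) cells, on an axis linear to 1 and logarithmic above. Genes are in order of their outermost GENCODE starts, with the distance of each from that of S100A10 in kilobases. Levels are highest at the 2 ends of the cluster, and the genes from S100A12 to S100A3 lie at or near 0 in both groups.

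Per kilobase of exons, a measure used to set levels side by side between genes, the make-up of the S100 family changed. It divides by all annotated exons of a gene, such as 680 bases for S100A11 and 2216 for S100A13. That need not be the length of the transcripts present. S100A11 stood highest in every library, with 34.1 and 34.2 CPM per kilobase in resistant cells and 37 and 36.2 in control cells. In resistant cells S100A10 came next with 18.2 and 17.9 CPM per kilobase, then S100P with 10.5 and 9.47 and S100A13 with 6.11 and 5.59. In control cells the order was S100P with 26.4 and 29.1, S100A13 with 20 and 19.6, S100A9 with 2.98 and 2.22, S100A4 with 1.63 and 1.53 and S100A10 with 1.47 and 1.27 CPM per kilobase. Neighbours in these orders did not overlap between libraries, though S100A4 and S100A10 lay close in control cells. The orders and the shares below depend on the length used. In mean CPM, without it, control cells had 43.9 for S100A13, 35.5 for S100P and 24.9 for S100A11. Resistant cells had 27.9 for S100A10 and 23.2 for S100A11. S100A10 made up 24.5% and 25.2% of the family's summed level per kilobase in resistant cells and 1.61% and 1.39% in control cells. The summed level was 74.3 and 71.1 CPM per kilobase in resistant cells and 91.3 and 91.6 in control cells.

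**Figure D4:**
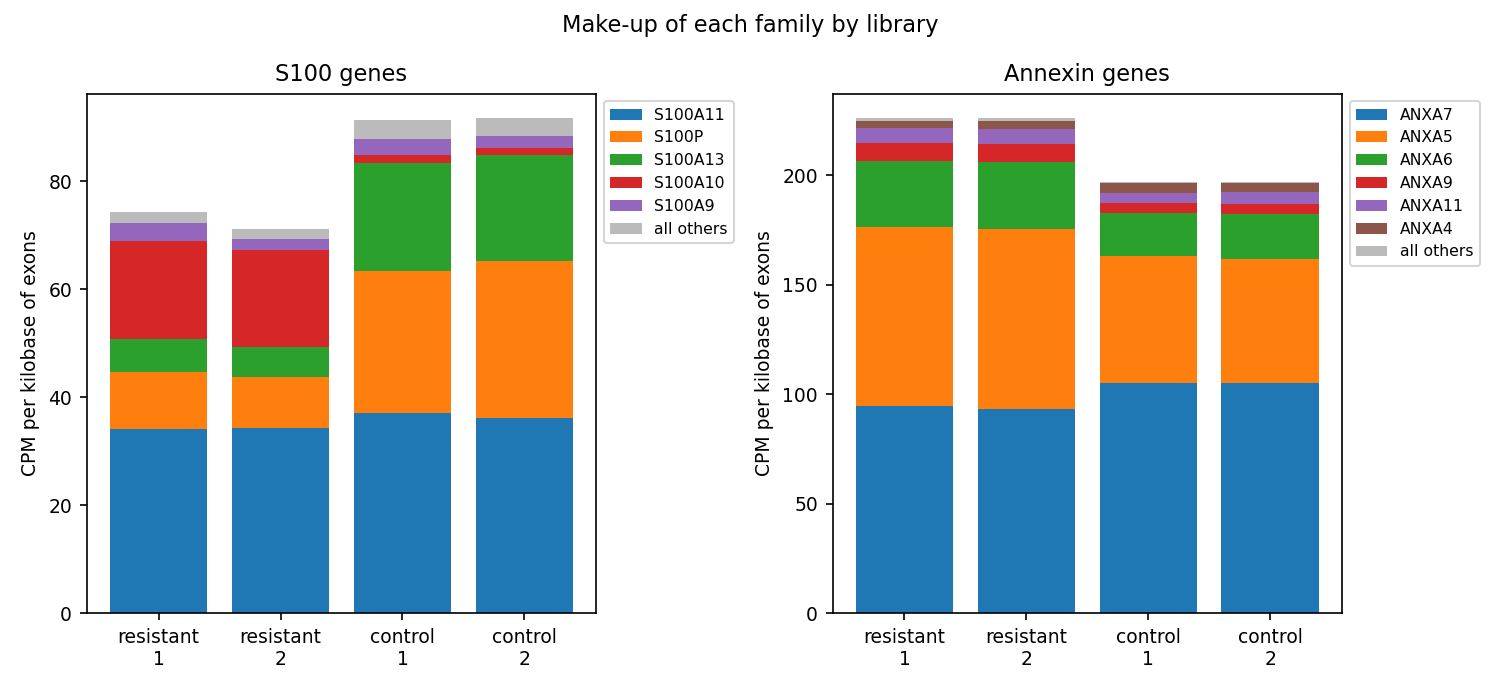
Stacked levels in CPM per kilobase of exons for the S100 genes (left) and annexin genes (right) in each library, resistant left of control, ANXA2R not included. In the S100 panel the S100A10 segment is wide in resistant libraries and thin in control libraries while the S100P and S100A13 segments shrink, and in the annexin panel ANXA7 and ANXA5 make up most of each bar.

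Among the annexins ANXA1 had the largest change. ANXA1 is the annexin induced by glucocorticoids that acts on formyl peptide receptors to resolve inflammation. The gene, ENSG00000135046.12, lies on chromosome 9 at 73151757 to 73170393 on the plus strand. It had 128 and 120 reads in resistant libraries, against 8 and 14 in control libraries. In CPM these were 2.65 and 2.89 in resistant cells and 0.335 and 0.498 in control cells, far apart but low in both. The fold change was 6.49 (log2 2.70, SE 0.239, edgeR adjusted p = 1.15e-06), and its log2 value lay between 2.47 and 3.04 when single libraries were left out. Its receptors FPR1 and FPR2 had no read in any library.

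ANXA5, ANXA6 and ANXA9 rose by smaller steps. ANXA5, which binds phosphatidylserine and is used to stain dying cells, had 248 and 250 CPM in resistant cells and 176 and 172 CPM in control cells (1.43-fold, SE 0.0378 on the log2 scale, edgeR adjusted p = 2.14e-07). ANXA6, the longest annexin, which works in endosome and cholesterol traffic, had 163 and 165 CPM in resistant cells and 105 and 110 CPM in control cells (1.53-fold, edgeR adjusted p = 1.3e-07). With the length and GC correction its log2 change was 0.35 in place of 0.61. ANXA9, an annexin with altered calcium sites, had 15.4 and 15.3 CPM in resistant cells and 8.63 and 8.76 CPM in control cells (1.76-fold, edgeR adjusted p = 8.4e-07). ANXA9 also lies on chromosome 1, at 150982017 to 150995634, outside the S100A span.

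The calls of ANXA11, ANXA4 and ANXA7 did not hold under every alternative. ANXA11, which binds the calcium sensor PDCD6 and carries RNA granules along axons, had 58.2 and 56.3 CPM in resistant cells and 39.3 and 45.2 CPM in control cells (log2 change 0.44, edgeR adjusted p = 5.23e-05). With the length and GC correction this was 0.085 (adjusted p = 0.147), so its call ended. ANXA4, of secretory epithelia, had 36.9 and 40.6 CPM in resistant cells and 48.9 and 47.5 CPM in control cells (log2 change -0.32, edgeR adjusted p = 0.000406), while scaling by total count gave -0.13 (adjusted p = 0.0602) and the length and GC correction -0.56 (adjusted p = 4.1e-08). ANXA7 (synexin), a partner of sorcin in vesicle fusion, had 270 and 266 CPM in resistant cells and 300 and 301 CPM in control cells. Its log2 change of -0.17 (SE 0.0355, edgeR adjusted p = 0.00155) became 0.023 (adjusted p = 0.576) with total count scaling, -0.0093 (0.799) with the length and GC correction, -0.069 (0.434) with no filter and -0.14 (0.0999) without resistant replicate 2.

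ANXA8L1 and ANXA8 are near-identical copies on chromosome 10, and their reads could be split or dropped. ANXA8L1 had 1.31 and 1.64 CPM in resistant cells and 1.51 and 1.14 CPM in control cells, with overlapping groups (log2 change 0.16, SE 0.219, edgeR adjusted p = 0.553). ANXA8 had 8 and 7 reads in resistant libraries and 2 and 3 in control libraries and was not tested. ANXA3 and ANXA10 had at most 1 read in any library and ANXA13 had none. Per kilobase, ANXA7 had 94.4 and 93 CPM in resistant cells and 105 and 105 in control cells, ANXA5 81.7 and 82.5 in resistant cells and 58.2 and 56.7 in control cells, and ANXA6 30.1 and 30.5 in resistant cells and 19.3 and 20.3 in control cells. That order was the same in all 4 libraries. The summed annexin level was 226 and 226 CPM per kilobase in resistant cells and 197 and 197 in control cells.

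**Figure D5:**
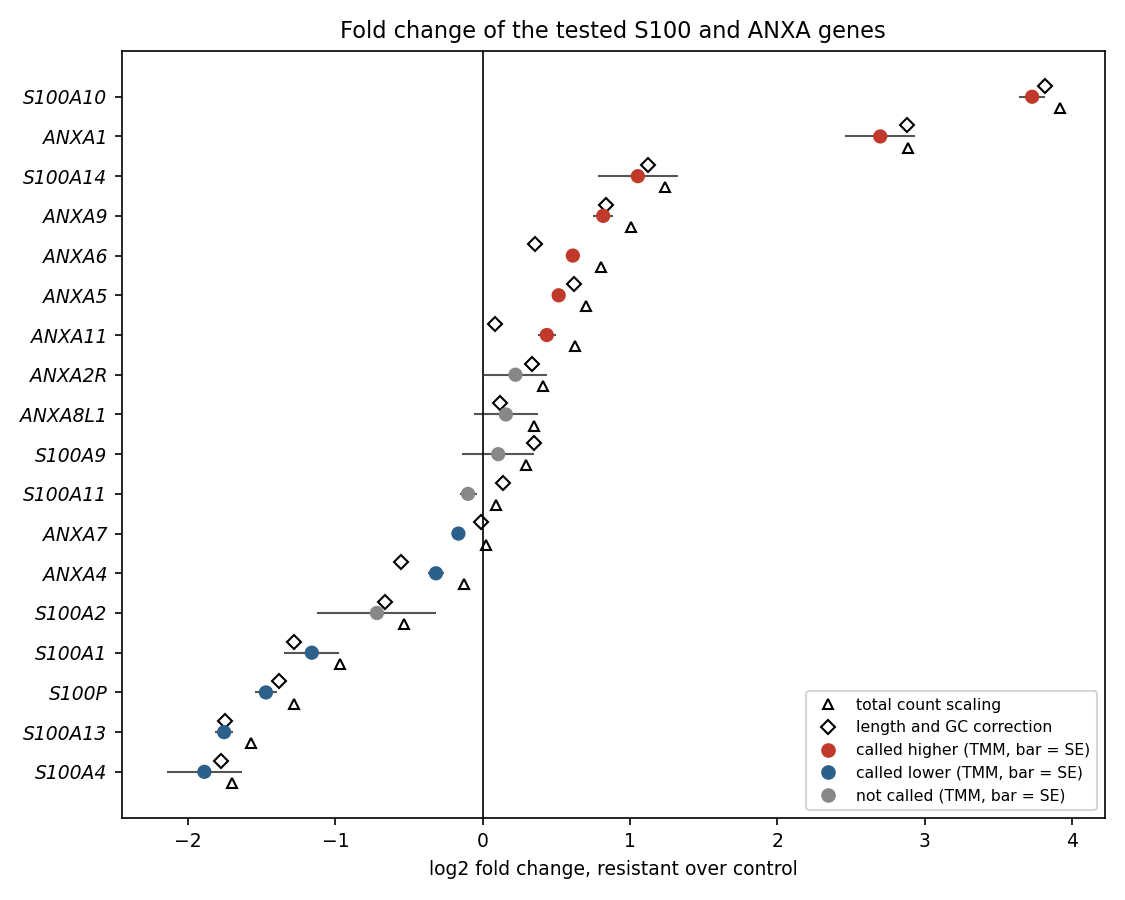
Log2 fold change of resistant over control cells for the 18 tested members, filled points with the SE as bars and coloured by the call, with open triangles for total count scaling and open diamonds for the length and GC correction. S100A10, ANXA1 and S100A14 lie above 1 and S100A1, S100P, S100A13 and S100A4 below -1 with TMM scaling, and ANXA11, ANXA7 and S100A11 move to or across 0 under a named alternative.

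The receptors and binding partners of the S100 proteins moved in both directions. Of 20 listed, 19 were tested, of which 9 rose and 8 fell (median log2 change -0.0030), with 5 at least 2-fold higher and 0 at least 2-fold lower. Total count scaling made this 11 and 5, and the length and GC correction 8 and 11. Among the 5 was CD36, with 58 and 38 reads in resistant libraries and 5 and 12 in control libraries. It needed the resistant libraries to pass the filter on low counts. AGER, the S100 receptor, had 2.86 and 2.65 CPM in resistant cells and 4.19 and 4.73 CPM in control cells, 1.62-fold lower (edgeR adjusted p = 0.000786). TLR4, the other main receptor, had too few reads, at a mean of 0.0552 CPM in resistant cells and 0.0806 CPM in control cells. Of 18 receptors and partners of annexins, 12 were tested, with 6 higher and 5 lower (median 0.11). Here 4 genes rose at least 2-fold and 0 fell that far. AHNAK counts in both lists. KDR had 24 and 13 reads in resistant libraries and 0 and 1 in control libraries, and PLA2G4A had 27 and 32 against 6 and 6. Both are among these 4 genes and passed the filter on low counts only through the resistant libraries. Genes this low in control cells could enter the test only as higher in resistant cells. Over all tested genes 64.7% were called (73.7% of the protein-coding ones), 7.58% at least 2-fold higher and 10.1% at least 2-fold lower. The DESeq2 test called 3 higher and 5 lower, as did edgeR without resistant replicate 1. With single libraries left out, the median lay between 0.053 (without resistant replicate 1) and 0.19 (without control replicate 2), each over 13 genes. With the length and GC correction it was -0.016 over 12 genes. Besides AHNAK, CHMP4B of the membrane-sealing ESCRT complex rose 2.05-fold, while the small GTPase CDC42 fell 1.59-fold and TSG101, also of ESCRT, fell 1.58-fold.

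Other calcium-binding families moved in both directions too, as did the tested protein-coding genes at large (42.3% called higher and 31.4% lower). Of 14 calpains and penta-EF-hand proteins, all 14 were tested, with 8 higher and 5 lower (median 0.19). With the length and GC correction these were 5 and 5 (median -0.023). The protease CAPN1 had 96.6 and 93.9 CPM in resistant cells and 42.8 and 44.6 CPM in control cells, and its small subunit CAPNS1 rose 1.56-fold. PDCD6, the partner of ANXA11, fell 1.42-fold, and SRI (sorcin), the partner of ANXA7, fell 1.33-fold. Of 25 other EF-hand sensors, 18 were tested, with 10 higher and 7 lower (median 0.17). Total count scaling made this 10 and 3 (median 0.36), and the length and GC correction 8 and 5 (median 0.059). CALM2, 1 of the genes for calmodulin, had 278 and 281 CPM in resistant cells and 788 and 752 CPM in control cells, 2.75-fold lower, and RCN2 of the endoplasmic reticulum fell 1.85-fold. The Golgi calcium binders NUCB2 and NUCB1 rose 1.77-fold and 1.69-fold. Of 26 genes of the epidermal differentiation complex, which shares the chromosome 1 region with the S100A genes, TCHH alone could be tested and was not called.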

How the data were processed

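The deposited tables hold unnormalized gene counts, 1 for each of 4 libraries. Per the submitters' processing notes, STAR 2.5.2b, GRCh38 and HTSeq were used, with annotation release, counting mode and strand not given in the sources used here. Overlapping genes and near-identical copies may have lost or mixed reads. The 5 rows that name no gene held 55.41% and 56.87% of records in resistant libraries and 74.40% and 71.08% in control libraries, and were left out. Records that did not align were 20.32% and 20.66% in resistant libraries and 36.95% and 34.16% in control libraries. This difference goes with the group, and its part in the results cannot be told apart from the group's. Identifiers were matched without version to GENCODE 29 (56753 of 60483).

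Counts were filtered with filterByExpr (minimum count 10), normalized by TMM, then compared in edgeR 4.0.16 (R 4.3.3) by its quasi-likelihood F test, with group as the only term (2 residual degrees of freedom), Benjamini-Hochberg adjustment over 20325 genes and a threshold of 0.05. The SE is the log2 fold change divided by the square root of F. CPM used TMM-scaled totals of all gene counts. Levels per kilobase divide by the union of GENCODE exons. Reads of replicate libraries differed by more than sampling noise (chi-square per degree of freedom 2.38 in the resistant pair and 5.67 in the control pair). Each library counted as 1 replicate, though this difference does not show that the libraries were separate cultures. The script was tested on simulated data. Every member could be named. From each list of related genes, the 4 called genes with the smallest adjusted p and a few preset receptors and partners were named. CACYBP, KDR, PLA2G4A and CD36 were added after their values were seen, and PLAU, PLG and TCHH also fall outside this rule. The members and lists were chosen with earlier results of these data known. Alternatives were total count scaling, DESeq2 1.42.0 size factors or test, no filter or 1 CPM, each library left out, a length and GC correction (smooth fits by mgcv) and a replicate block.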

Additional observations from a re-analysis of the deposited data

How the results depend on the processing

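Between 11 and 14 of the members were called under every alternative, against 13, and leaving out single libraries gave 12 to 13. For S100A10, S100A13, S100A4, S100P, S100A1, ANXA1, ANXA5, ANXA6 and ANXA9 the direction and the call were unchanged in all of them. Total count scaling, which moved the all-gene median up by 0.188 (log2) and raised the share of higher calls to 64.4% from 51%, turned ANXA7 to 0.0235 and S100A11 to 0.0891. Under it 1 gene of the chromosome 1 span and of the epidermal differentiation complex, TCHH, was called in place of 0. By edgeR with TMM its unadjusted p was 0.0392, and DESeq2 called 0 as well. S100A2 was not tested under the filter of 1 CPM. The share of higher calls was 45.7% with the length and GC correction, which turned S100A11 to 0.138 (0.137 with the replicate block). With single libraries left out, S100A9 lay between -0.234 and 0.374 (-0.0957 without control replicate 2 and -0.234 without resistant replicate 1) and ANXA8L1 between -0.0367 (without control replicate 2) and 0.362. The cause was not tested. The replicate numbers did not pair the libraries (correlation of deviations -0.0228), and the replicate block gave 13 members called, 6 S100 and 7 ANXA genes, with 13091 calls over all genes. Low counts limit S100A14, S100A2, S100A4, S100A1 and ANXA2R, with at most 62 reads in any library.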
